A study of Macaca fascicularis with 16 samples.

Results

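The genes described here encode the core of the vascular basement membrane: the collagen IV chains COL4A1, COL4A2, COL4A5 and COL4A6, the laminin chains LAMA4, LAMA5, LAMB2 and LAMC1, the linker nidogen (NID1) and the heparan sulfate proteoglycan perlecan (HSPG2). They were found by matching the NCBI GeneIDs of the deposited counts to these 10 symbols, which gave 10 genes of 32822 GeneIDs, and all 10 passed the filter on low counts. RNA had been sequenced from the aortas of young, normal monkeys of the species Macaca fascicularis (cynomolgus), all labelled as baseline, with no agent named. Each of the 4 regions, the ascending and descending thoracic aorta and the suprarenal and infrarenal abdominal aorta, had 4 libraries. The labels do not say whether the 4 libraries of a region came from 4 animals, and the p-values then cover no more than the spread among these 16 libraries, which may be technical. Exact age, sex and the sampled layers of the wall are not stated in the labels.

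A basement membrane is a thin sheet of matrix that surrounds each smooth muscle cell of the aortic media and underlies the endothelium. Laminins, which are trimers of an alpha, a beta and a gamma chain, polymerize at the cell surface and bind integrins and dystroglycan, while collagen IV trimers form a covalently crosslinked network that gives the sheet its strength, and nidogen and perlecan join the networks. COL4A1 and COL4A2 form the collagen IV trimer found in most basement membranes, and COL4A5 and COL4A6 form another that is known from smooth muscle.

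Library totals ran from 14402824 to 21407514 counts, and every member had at least 827 counts in every library. Levels are given as CPM, counts scaled to a common library size with TMM factors. CPM is not divided by transcript length, so levels are compared between libraries and never between genes. A log2 difference of 1 is a doubling. A difference passed where the adjusted p-value over all 15926 genes tested was under 0.05.

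Some libraries stood apart. Infrarenal replicate 1 had a TMM factor of 0.736, against 0.977 to 1.08 in the other 15 libraries, and its 78 ribosomal protein genes lay 1.57 above the rest of its region on the log2 scale, against -0.744 to 0.33 in the others. Ascending replicate 4 and suprarenal replicate 3 had the lowest summed CPM of 10 smooth muscle markers, 19610 and 15190 against at least 25550 elsewhere. The 12 endothelial markers summed to 2179 and 3705 CPM in these libraries, above the other libraries of their regions. For the infrarenal region against the rest, member values are given with and without these 3 libraries where their removal changed the call or moved the value by over 1.5 times. Leaving out the 3 together was chosen after the data were seen. In this comparison it raised the calls over all genes from 474 to 1607. In whole tissue, fewer cells of a type and less RNA per cell cannot be told apart.

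The laminin alpha chain LAMA5 rose along the aorta, from 202.6 ± 12.98 CPM (SD, n = 4) in the ascending to 331 ± 56.8 CPM (SD, n = 4) in the infrarenal region. It was the only member that passed with all 16 libraries in the edgeR fit. The collagen IV chains, LAMA4, LAMB2, LAMC1, NID1 and HSPG2 passed none of its 9 comparisons, although COL4A6, NID1 and HSPG2 passed in some alternative analyses given with each gene. Among related genes that are not members, the collagen IV chains COL4A3 and COL4A4 and the netrin NTN4 fell in the infrarenal aorta, and the laminin receptor BCAM rose.

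**Figure D1:**
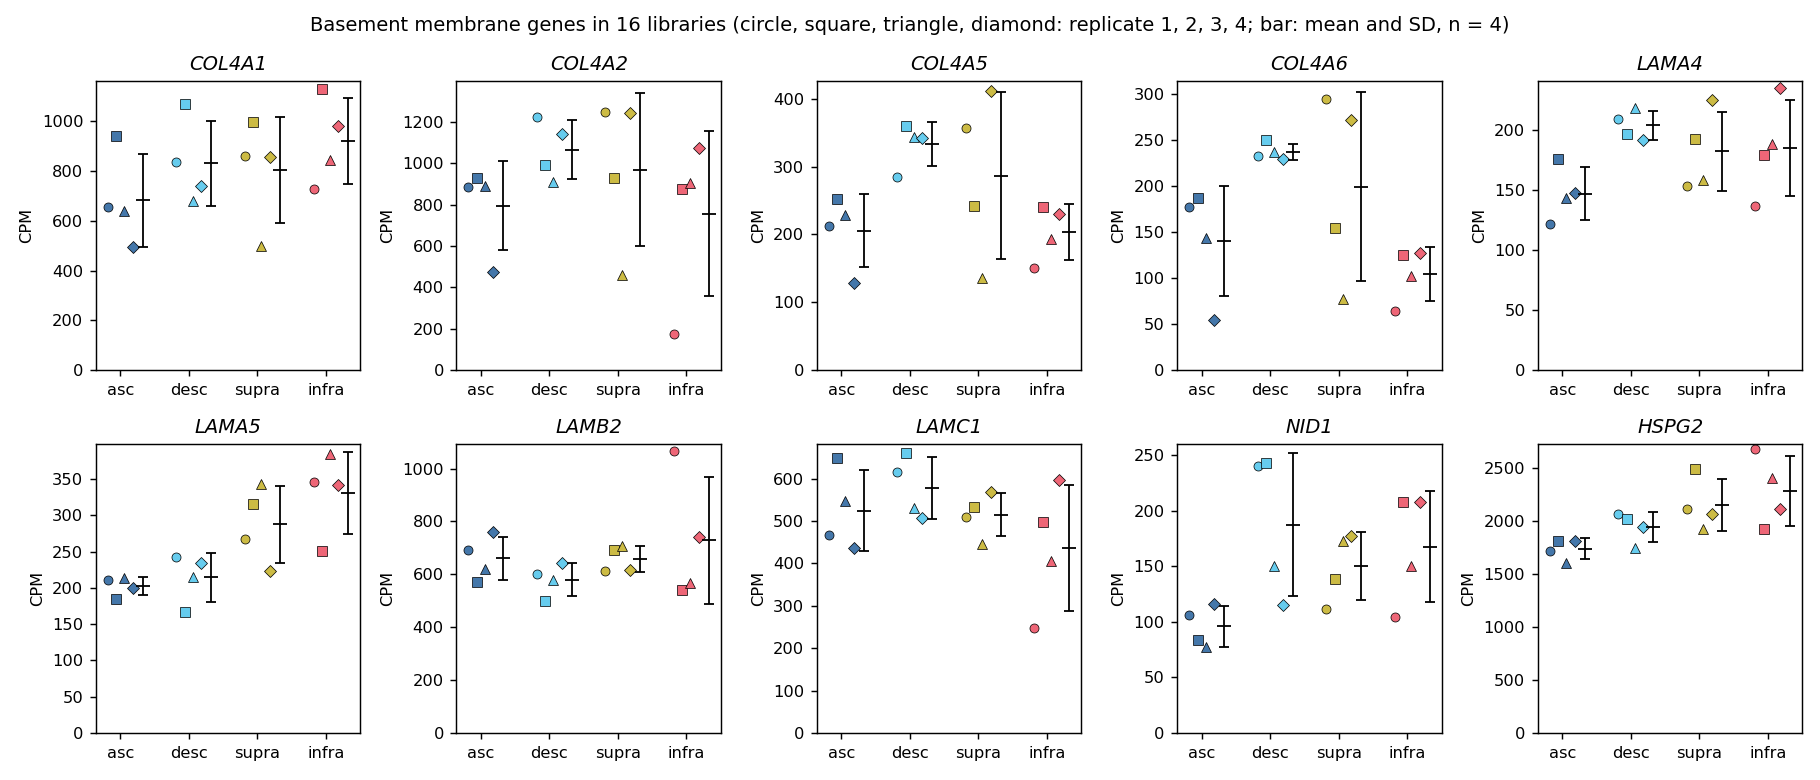
CPM of the 10 members (y axis, linear from 0) in the 16 libraries by region (x axis: asc, ascending; desc, descending; supra, suprarenal; infra, infrarenal), with the symbol showing the replicate and the bar the mean and SD of 4 libraries. LAMA5 goes from 203 CPM in the ascending to 331 CPM in the infrarenal region, while COL4A2 has 1 infrarenal library at 177 CPM.

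Among the collagen IV chains, COL4A1 (GeneID 102122606) was at 656, 941, 639.7 and 493 CPM in ascending replicates 1 to 4, at 837, 1068, 679 and 738 CPM in the descending, at 859, 997, 499 and 856 CPM in the suprarenal and at 728, 1129, 844 and 981 CPM in the infrarenal libraries. All 4 regions overlapped. The infrarenal level exceeded the mean of the other regions by 0.26 on the log2 scale (SE 0.20, 95% interval -0.16 to 0.68, adjusted p = 0.616 by the quasi-likelihood test of edgeR).

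COL4A2 (GeneID 102131342), its partner chain and, in the annotation, its direct neighbour with 0 entries between them, was at 886, 927, 891 and 473 CPM in the ascending, at 1224, 993, 906 and 1139 CPM in the descending, at 1247, 926, 462 and 1240.1 CPM in the suprarenal and at 177, 873, 903 and 1074 CPM in the infrarenal libraries. The value of infrarenal replicate 1 was the lowest of all 16 and lay 2.42 below the rest of its region on the log2 scale. COL4A1 was at -0.425 in the same library. With this spread COL4A2 differed by -0.31 between the infrarenal region and the others (SE 0.35, 95% interval -1.05 to 0.44, adjusted p = 0.782 by edgeR), by 0.02 without infrarenal replicate 1 (adjusted p = 0.988), which turns the sign, and by -0.12 without the 3 libraries that stood apart (adjusted p = 0.632).

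COL4A5 (GeneID 102127262) was at 212, 252, 229 and 129 CPM in the ascending, at 285, 360.1, 344 and 342 CPM in the descending, at 356, 242, 136 and 412 CPM in the suprarenal and at 150.25, 241, 194 and 231 CPM in the infrarenal libraries. Every descending library lay above every ascending and every infrarenal one. The suprarenal libraries, from 136 to 412 CPM, overlapped all 3 other regions. The descending excess was 0.69 over the ascending region on the log2 scale (SE 0.29, adjusted p = 0.676), and the infrarenal region lay at -0.71 against the descending (SE 0.29, adjusted p = 0.296 by edgeR).

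COL4A6 (GeneID 102125366), the partner of COL4A5 and separated from it by 1 annotated entry, followed the same order. It was at 177, 186, 143 and 54.9 CPM in the ascending, at 233, 249, 237 and 229.6 CPM in the descending, at 294, 154, 76.9 and 272 CPM in the suprarenal and at 63.8, 125, 102 and 127 CPM in the infrarenal libraries. The 4 descending libraries had a coefficient of variation of 3.65% and overlapped neither the ascending nor the infrarenal libraries. COL4A6 had the largest infrarenal difference of the 10 members, -0.85 against the other regions (SE 0.33, 95% interval -1.56 to -0.14) and -1.18 against the descending region (SE 0.39, 95% interval -2.02 to -0.35), with adjusted p = 0.253 and 0.189 by edgeR. Without the 3 libraries that stood apart it passed, at -0.85 against the other regions (adjusted p = 0.0074), -1.03 against the suprarenal (0.0268) and -1.003 against the descending region (0.0117). These 3 libraries, left out after the data were seen, had the lowest COL4A6 level of their regions. Against the other regions, their removal left the COL4A6 difference at -0.85 and raised the calls over all genes from 474 to 1607. In a fit of the 8 descending and infrarenal libraries alone the difference also passed, at -1.18 (adjusted p = 0.0286).

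The collagen IV chains lay low together in some libraries. This did not hold in every region: in each descending library their signs were mixed, as at 0.0439, 0.28, -0.288 and -0.0368 in replicate 1 for COL4A1, COL4A2, COL4A5 and COL4A6. In ascending replicate 4, COL4A1, COL4A2, COL4A5 and COL4A6 lay at -0.572, -0.931, -0.836 and -1.61 on the log2 scale relative to the other 3 ascending libraries. In suprarenal replicate 3 they lay at -0.854, -1.29, -1.27 and -1.59 relative to the rest of that region. LAMA5, LAMB2 and HSPG2 in those libraries stayed between -0.206 and 0.367, and LAMA4, LAMC1 and NID1 between -0.333 and 0.395. The same 2 libraries had the lowest summed CPM of 6 pericyte markers, 1336 and 1218, beside the low smooth muscle sums given above. Most of these pericyte sums was RGS5, at 825 and 739 CPM. ABCC9 was also the lowest of its region in both, at 9.54 and 12.2 CPM. CSPG4 was the highest of the ascending libraries, at 308 CPM, and the lowest of the suprarenal ones, at 204 CPM. The part of cell makeup in the collagen IV values was not tested.

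**Figure D2:**
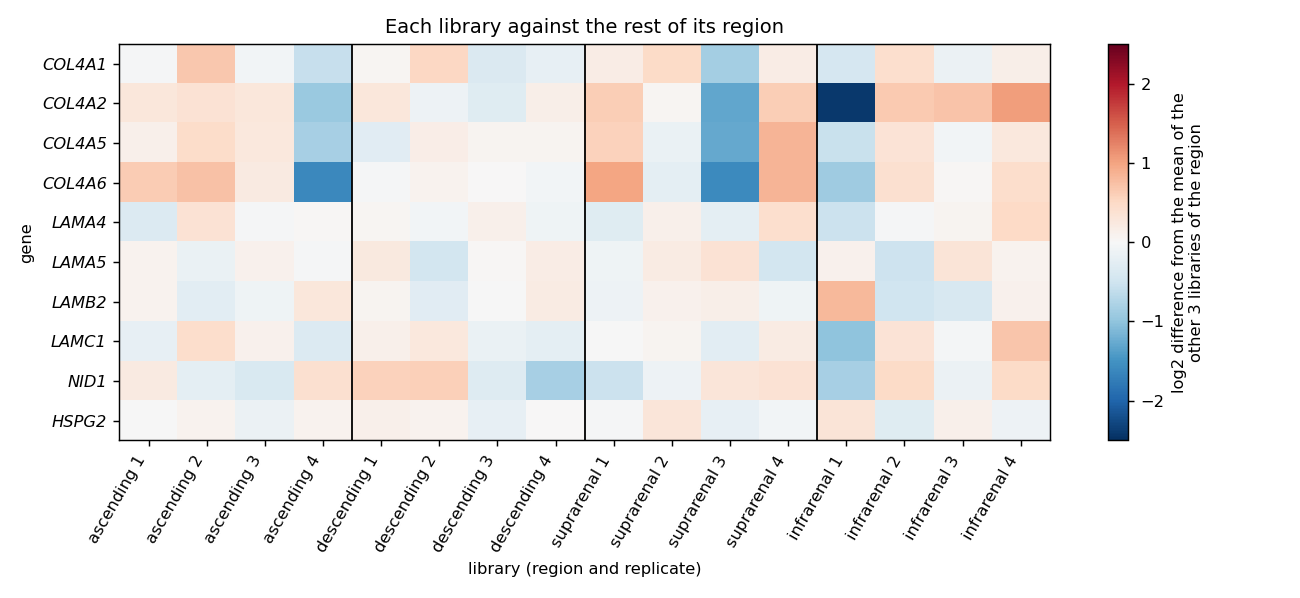
Log2 difference of each library from the mean of the other 3 libraries of its region (colour, blue lower and red higher) for the 10 members (rows) in the 16 libraries (columns, region and replicate). The 4 collagen IV rows are blue in ascending replicate 4, suprarenal replicate 3 and infrarenal replicate 1, where COL4A2 reaches -2.42.

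Of the laminin chains, LAMA5 (GeneID 102128796), whose laminins lie under endothelium and in mature vessel walls, was at 212, 185, 214 and 200.02 CPM in the ascending, at 242, 166, 215 and 234 CPM in the descending, at 268, 316, 344 and 224 CPM in the suprarenal and at 346, 251, 385 and 341 CPM in the infrarenal libraries. Each infrarenal library lay above each ascending and each descending one, and each suprarenal library lay above each ascending one. The suprarenal libraries overlapped the descending and the infrarenal libraries.

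Per region, LAMA5 rose by 0.25 (log2) in the linear trend from ascending through descending and suprarenal to infrarenal (SE 0.05, 95% interval 0.14 to 0.37, adjusted p = 0.0142 by the quasi-likelihood test of edgeR). The infrarenal region exceeded the ascending by 0.71 (SE 0.17, 95% interval 0.34 to 1.08, adjusted p = 0.0319), a fold of 1.63. In the order of levels, no neighbours passed: infrarenal over suprarenal was 0.20 (adjusted p = 0.964), suprarenal over descending 0.43 (adjusted p = 1.00) and descending over ascending 0.08 (adjusted p = 0.906). The infrarenal excess over the other regions together was 0.51 (SE 0.14, adjusted p = 0.0587 by edgeR), and it passed with DESeq2 at 0.53 (adjusted p = 0.00741) and without the 3 libraries that stood apart at 0.52 (adjusted p = 0.038).

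The LAMA5 trend passed in 23 of 24 alternative analyses and lost its call without ascending replicate 2 (0.24 per region, adjusted p = 0.0536). The LAMA5 difference between infrarenal and ascending passed in 16 of 25, and was lost, among others, without any 1 of the 4 ascending libraries or without infrarenal replicate 3 or 4, with adjusted p up to 0.113.

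Endothelium is a known source of LAMA5. Of 12 endothelial markers 10 were positive in the infrarenal region against the rest, with a median log2 difference of 0.552 beside 0.0281 over all genes, and 1 passed (ESAM, a junction protein, log2 1.72, SE 0.35, adjusted p = 0.0126 by edgeR). Their summed CPM ran from 542 to 2180 in the ascending, 817 to 1120 in the descending, 612 to 3710 in the suprarenal and 1110 to 3050 in the infrarenal libraries, and 0 of the 12 were at 0 in any library. The 3 libraries with the highest endothelial sums differed in LAMA5. Suprarenal replicate 3 (3705 CPM) had the highest suprarenal LAMA5 level, 344 CPM, and infrarenal replicate 3 (3055 CPM) the highest of all 16, 385 CPM, while ascending replicate 4 (2179 CPM) had 200.02 CPM, within the range of the other ascending libraries. Whether endothelial content had a part in the LAMA5 trend was not tested.

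LAMA4 (GeneID 102132640), the alpha chain of laminins around smooth muscle and small vessels, was at 121, 175, 143 and 148 CPM in the ascending, at 208, 196, 218 and 192 CPM in the descending, at 153, 192, 158 and 224 CPM in the suprarenal and at 137, 179, 188 and 235 CPM in the infrarenal libraries. The descending libraries lay above all ascending libraries, with a log2 difference of 0.47 (SE 0.18, adjusted p = 0.562 by edgeR). Infrarenal against the mean of the others was 0.07, with a 95% interval from -0.23 to 0.37, and 0.17 without the 3 libraries that stood apart.

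LAMB2 (GeneID 102135628), the beta chain of smooth muscle laminins, was at 691, 572, 619 and 759 CPM in the ascending, at 599.8, 498, 577 and 644 CPM in the descending, at 612, 693, 707 and 617 CPM in the suprarenal and at 1065, 541, 567 and 739 CPM in the infrarenal libraries. The high infrarenal value was that of replicate 1, at 0.804 above the rest of its region on the log2 scale. Infrarenal over the other regions was 0.21 with all libraries (95% interval -0.13 to 0.54, adjusted p = 0.627 by edgeR), 0.00068 without the 3 libraries that stood apart and -0.03 without infrarenal replicate 1 alone.

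LAMC1 (GeneID 102116045), the gamma chain shared by most laminins, ran from 436 to 649 CPM in the ascending, 507 to 662 in the descending, 447 to 569 in the suprarenal and 247 to 597 in the infrarenal libraries. The lowest value was again that of infrarenal replicate 1, at -0.999 relative to the rest of its region. Its infrarenal difference was -0.30 (95% interval -0.70 to 0.09, adjusted p = 0.504 by edgeR), and -0.11 without that library and -0.16 without the 3 that stood apart.

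NID1 (GeneID 102142650), which links laminin to collagen IV, was at 106, 83.7, 77.5 and 116 CPM in the ascending, at 239.7, 243, 151 and 115 CPM in the descending, at 112, 138, 172 and 177 CPM in the suprarenal and at 105, 208, 150.3 and 208 CPM in the infrarenal libraries. The ascending libraries were low and touched the lowest library of each other region. NID1 had the largest difference between the thoracic regions among the members, 0.96 for descending over ascending (SE 0.27, 95% interval 0.39 to 1.54, adjusted p = 0.292 by edgeR). Infrarenal over ascending was 0.81 (SE 0.27, adjusted p = 0.141), and it passed without infrarenal replicate 1 (0.98, adjusted p = 0.034) and without the 3 libraries that stood apart (1.08, adjusted p = 0.0214). The infrarenal level exceeded that of the rest by 0.27 with all libraries and by 0.50 without the 3 (adjusted p = 0.64 and 0.173). The NID1 trend also passed without those 3 libraries (0.29 per region, adjusted p = 0.0491, against an adjusted p of 0.271 with all libraries).

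HSPG2 (GeneID 102145976), the proteoglycan that binds growth factors and anchors the sheet, was at 1719.5, 1812, 1603 and 1812 CPM in the ascending, at 2068, 2021, 1743 and 1939.8 CPM in the descending, at 2107, 2493, 1921 and 2067 CPM in the suprarenal and at 2674, 1927, 2406 and 2107 CPM in the infrarenal libraries. All abdominal libraries lay above all ascending libraries. The trend of 0.13 per region did not pass (SE 0.05, adjusted p = 0.207 by edgeR), nor did infrarenal over ascending at 0.39 (SE 0.15, adjusted p = 0.254). DESeq2 called both, with adjusted p = 0.0136 and 0.0245. Infrarenal over the rest was 0.24 with all libraries and 0.14 without the 3 that stood apart (adjusted p = 0.426 and 0.441).

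**Figure D3:**
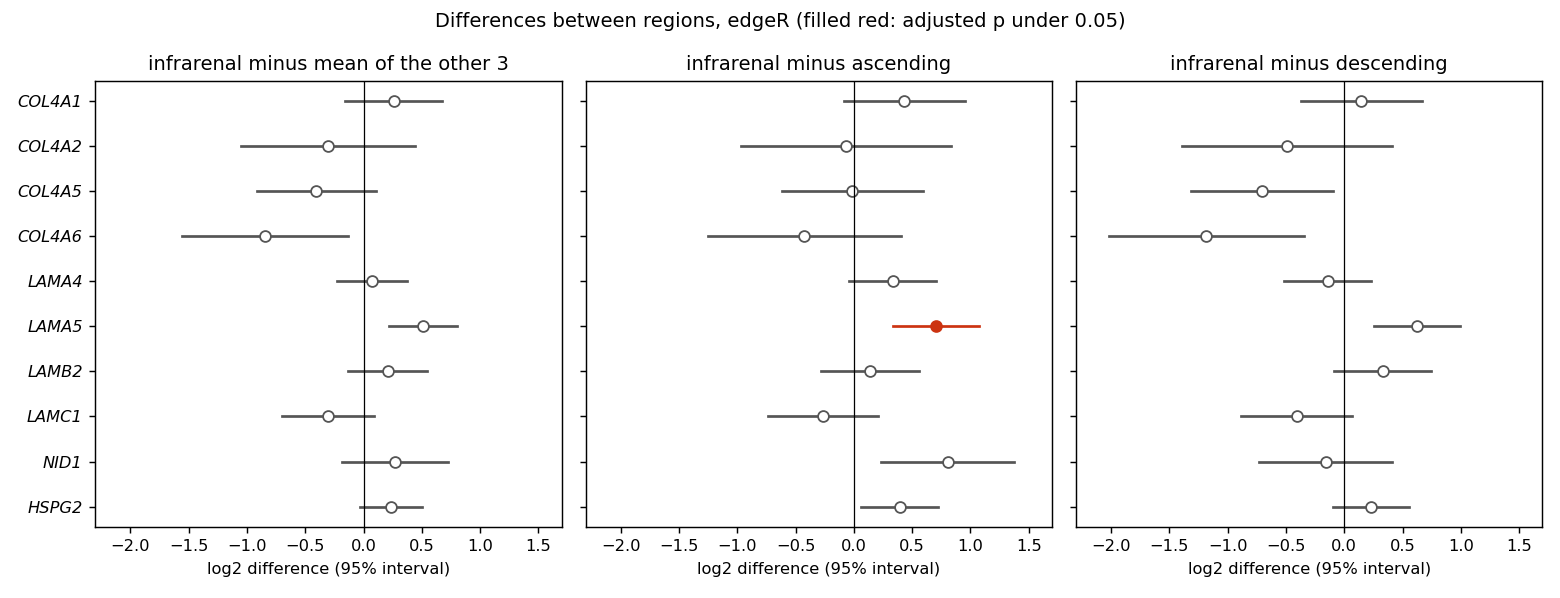
Log2 differences (x axis) of the 10 members (y axis) for infrarenal against the other 3 regions together, the ascending and the descending region, with 95% intervals from edgeR. LAMA5 against the ascending region (0.71) is the only filled point, and COL4A6 has the most negative value in each panel.

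Counted by comparison, 1 of the 10 members (LAMA5) passed in the linear trend, where 3.72% of all genes tested passed, and 1 of 10 (LAMA5) in infrarenal against ascending, where 3.49% passed. In the other 7 comparisons 0 members passed by edgeR. The share of all genes was 2.02% for any difference among regions, 2.98% for infrarenal against the rest, 0.201% for infrarenal against suprarenal, 1.65% for infrarenal against descending, 0% for suprarenal against descending, 0.257% for suprarenal against ascending and 0.113% for descending against ascending. With so few genes called, 0 of 10 is near the background in each.

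At an unadjusted p under 0.05 there were 3 members for any difference (9.61% of all genes), 2 for infrarenal against the rest (13.7%), 1 for infrarenal against suprarenal (5.76%) and 3 for infrarenal against descending (13.8%). There were 1 for suprarenal against descending (1.66%), 2 for suprarenal against ascending (5.5%) and 3 for descending against ascending (6.74%). DESeq2 called LAMA5 in any difference, in infrarenal against the rest and in infrarenal against descending, and 0 members in the other 4 of these comparisons. Limma voom called 0 in all 7. The median log2 difference of the members was 0.138 for infrarenal against the rest, beside 0.0281 over all genes, and 0.354 for descending against ascending, beside -0.00759, with 9 of 10 members positive. In descending against ascending the adipocyte markers were also positive in 8 of 8, with a median of 3.69, and the fibroblast markers in 6 of 8, with a median of 0.552 and summed CPM of 1630 to 4010 in the ascending and 3070 to 4900 in the descending libraries. Pericyte markers were positive in 4 of 5 (median 0.362), with summed CPM of 1340 to 2830 in the ascending and 4700 to 5790 in the descending libraries. RGS5 made up most of these sums, at 825 to 2313 CPM in the ascending and 4152 to 5174 CPM in the descending libraries. ABCC9 and PDGFRB did not overlap between these regions, while KCNJ8 and CSPG4 did (CSPG4 at 245 to 308 and 225 to 314 CPM). In the other marker lists 6 of 7 macrophage, 4 of 12 endothelial, 5 of 10 smooth muscle, 2 of 8 Schwann cell, 1 of 5 mesothelial, 0 of 3 cardiac and 0 of 4 skeletal muscle markers were positive. None of these markers passed by edgeR in this comparison. At an unadjusted p under 0.05 there were 6 adipocyte, 3 fibroblast and 2 pericyte markers. The part of these cell types in the member values was not tested.

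Libraries of 2 regions did not overlap for 3 of 10 members in descending against ascending (COL4A5, COL4A6 and LAMA4 higher), where 11.8% of all genes did not overlap, and for 3 of 10 in infrarenal against descending (LAMA5 higher, COL4A5 and COL4A6 lower), where 10.1% did not. There were 2 such members (LAMA5 and HSPG2, both higher) in infrarenal against ascending, beside 7.19% of all genes, and the same 2 in suprarenal against ascending, beside 3.82%. There were 0 in infrarenal against suprarenal, beside 2.43%, and 0 in suprarenal against descending, beside 1.8%. These comparisons share libraries.

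Ratios of the counts of 2 chains within a library do not depend on library scaling, and 6 ratios were compared in 2 ways, infrarenal against the other 12 libraries and abdominal against thoracic. Because lengths differ between genes, the ratio itself is not an abundance ratio and only its change between regions is read. The infrarenal libraries had fewer COL4A5 counts per COL4A1 count than every other library. The ratio COL4A5/COL4A1 was 0.206, 0.213, 0.229 and 0.235 in infrarenal replicates 1 to 4, from 0.262 to 0.358 in the ascending, 0.337 to 0.506 in the descending and 0.243 to 0.481 in the suprarenal libraries. The log2 difference was -0.65, a fold of 0.639 (exact permutation test, two-sided p = 0.00385, Benjamini-Hochberg adjusted over 12 tests p = 0.0462).

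It was the only 1 of the 12 tests that passed, and the smallest p this test can give is 0.000549. The COL4A5/COL4A1 difference kept its sign without each library in turn (-0.693 to -0.597), but the adjusted p rose above the threshold in 11 of 16 cases, to at most 0.132 without infrarenal replicate 1. The other libraries whose removal lost the call were infrarenal replicates 2, 3 and 4, ascending replicates 1 and 3, the 4 descending libraries and suprarenal replicate 1. Without the 3 libraries that stood apart it was -0.69 (exact permutation, adjusted p = 0.042).

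COL4A6/COL4A5 was 0.425, 0.519, 0.529 and 0.55 in the infrarenal libraries and 0.565 to 0.835 in the others except ascending replicate 4, which was at 0.425. The log2 difference was -0.42 (exact permutation, two-sided p = 0.0121, adjusted p = 0.0681) and passed without ascending replicate 4 (-0.48, adjusted p = 0.00879) or without the 3 libraries (-0.43, adjusted p = 0.042). COL4A2/COL4A1 was 0.243, 0.774, 1.07 and 1.09 in the infrarenal and 0.926 to 1.54 in the other libraries, a log2 difference of -0.81 (exact permutation, adjusted p = 0.0681) that shrank to -0.31 without infrarenal replicate 1.

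LAMA5/LAMA4 had a geometric mean of 1.39 in the ascending, 1.04 in the descending, 1.58 in the suprarenal and 1.8 in the infrarenal region. The abdominal libraries exceeded the thoracic by 0.49 on the log2 scale (exact permutation, smallest possible p = 7.77e-05, two-sided p = 0.025, adjusted p = 0.0751). It passed without suprarenal replicate 4 (0.60, adjusted p = 0.0308). LAMB2/LAMB1, with the other common beta chain, and NID2/NID1, the 2 nidogens, had adjusted p between 0.232 and 0.908 by the exact permutation test.

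**Figure D4:**
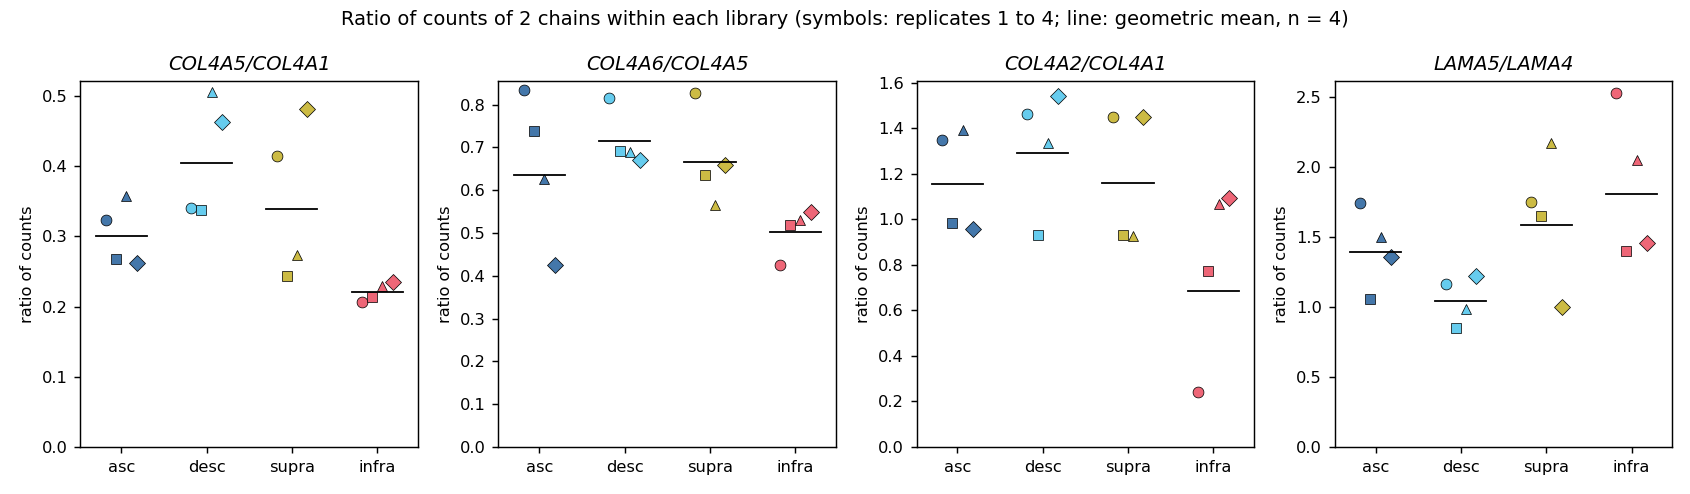
Ratio of the counts of 2 chains within each library (y axis, linear from 0, not corrected for length) by region (x axis), with symbols for replicates and a line for the geometric mean of 4 libraries. The infrarenal COL4A5/COL4A1 points, 0.206 to 0.235, lie below all other points, and 1 infrarenal library is far down in COL4A2/COL4A1 at 0.243.

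Of 22 other basement membrane components, all tested, 1 rose and 3 fell in the infrarenal region against the rest, beside 2.98% of all genes called. The list was chosen with earlier results of these data known, so this count is not an independent test against that share. The 3 that fell were COL4A3 and COL4A4, which share a trimer with COL4A5 in kidney and other specialised basement membranes, and NTN4, a laminin-related netrin that binds laminin gamma chains. COL4A3 was at 90.4, 64.8, 94.4 and 114 CPM in the ascending, 63.1, 84.7, 82.8 and 86.5 CPM in the descending, 52.9, 24.4, 27.2 and 71.3 CPM in the suprarenal and 10.6, 9.93, 8.58 and 14.4 CPM in the infrarenal libraries. All infrarenal libraries lay below all others, with a log2 difference of -2.65 against the rest (SE 0.29, adjusted p = 0.000139 by edgeR) and -2.01 against the suprarenal region (SE 0.31, adjusted p = 0.0143). The COL4A3 call against the suprarenal region was lost in 5 of 25 alternative analyses: with voom, in the 8 libraries alone (adjusted p = 0.272), and on leaving out the first suprarenal library or either the second or the third infrarenal one. COL4A3 fell by 1.004 per region in the trend (adjusted p = 4.9e-05).

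COL4A4, the direct neighbour of COL4A3 in the annotation, was at 7.54 to 20.2 CPM in the infrarenal and 11.99 to 80.1 CPM in the other libraries, a log2 difference of -1.93 (SE 0.41, adjusted p = 0.0151 by edgeR) with overlap through suprarenal replicate 3. NTN4 was at 79.1 to 153 CPM in the infrarenal and 243 to 399 CPM in the other libraries, without overlap, a log2 difference of -1.33 (SE 0.17, adjusted p = 0.00044). TINAGL1, a matricellular glycoprotein of basement membranes, rose by 0.56 (SE 0.14, adjusted p = 0.0382). COL4A3 and NTN4 passed against the rest in all 24 alternative analyses and TINAGL1 in 11 of 24. COL4A4 passed in 23 of 24, all but that without infrarenal replicate 3 (adjusted p = 0.0563).

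In this comparison the 95% interval of COL4A3, -3.26 to -2.04, lay wholly below that of COL4A1, -0.16 to 0.68. In the 22 components the median log2 difference was -0.284, beside 0.138 in the 10 members and 0.0281 over all genes. The difference between the lists was not tested.

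**Figure D5:**
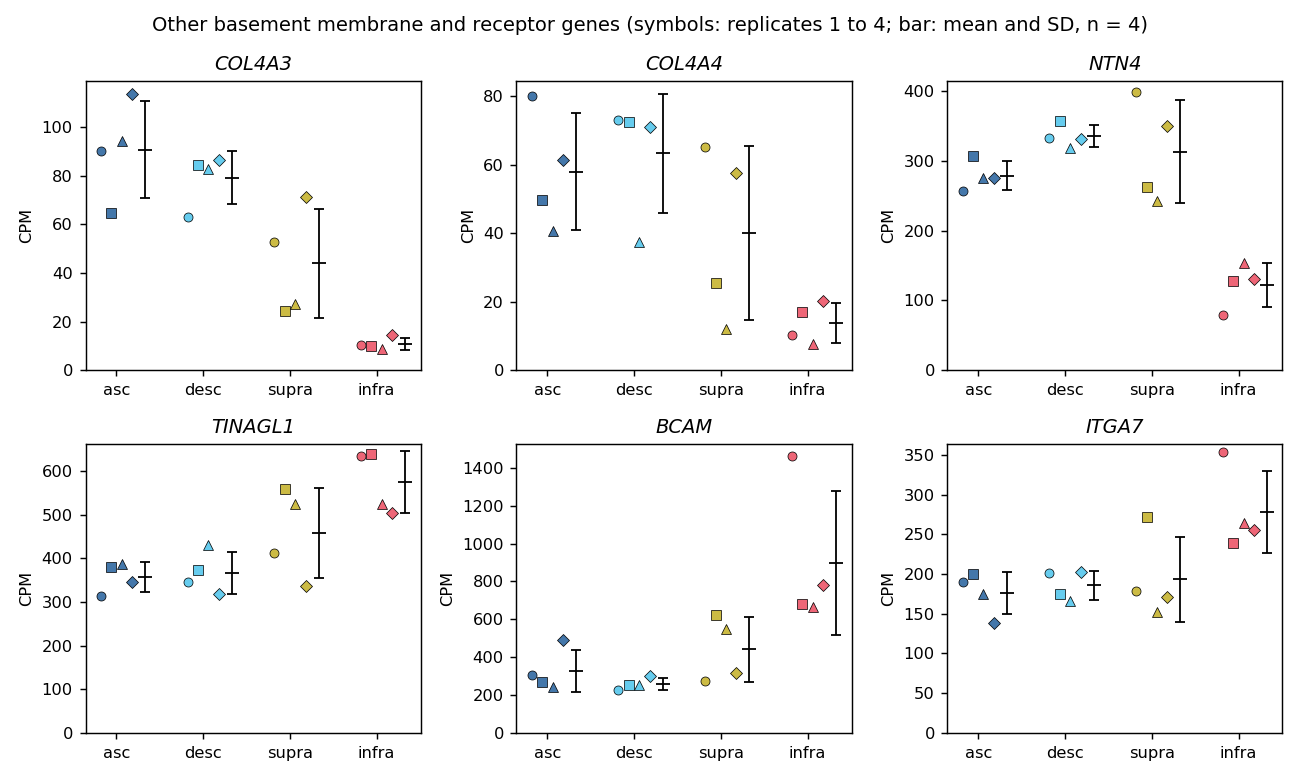
CPM (y axis, linear from 0) by region (x axis) of the basement membrane genes COL4A3, COL4A4, NTN4 and TINAGL1 and the receptors BCAM and ITGA7, with symbols for replicates and bars for mean and SD of 4 libraries. Infrarenal COL4A3 and NTN4 points lie below all other points, and infrarenal BCAM points, 664 to 1464 CPM, lie above all others.

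Of 15 receptors for basement membrane proteins, 2 rose and 0 fell in the infrarenal region against the rest, beside 2.98% of all genes called (218 higher and 256 lower). The receptor list, too, was chosen with earlier results of these data known, and its count is no independent test. BCAM, the Lutheran glycoprotein that binds laminins containing the LAMA5 chain, was at 1464, 681, 664 and 783 CPM in the infrarenal and 227 to 621 CPM in the other libraries, without overlap. Its log2 difference was 1.43 (SE 0.24, adjusted p = 0.00316 by edgeR), and it passed in all 24 alternative analyses. ITGA7, the laminin-binding integrin chain of muscle, rose by 0.59 (SE 0.15, adjusted p = 0.0464) and passed in 6 of 24, with 0.39 (adjusted p = 0.0739) without the 3 libraries that stood apart. Of 14 genes for processing and crosslinking collagen IV, 0 passed in that comparison by edgeR, beside the same 2.98%. At an unadjusted p under 0.05 there were 3 of the 14, beside 13.7% of all genes. PXDN, the peroxidase that forms the sulfilimine crosslinks of collagen IV, fell by 0.20 per region in the trend (SE 0.05, adjusted p = 0.0388, passing in 11 of 24). P3H2, a prolyl hydroxylase acting on collagen IV, rose in infrarenal against descending (log2 1.49, SE 0.34, adjusted p = 0.0371, passing in 12 of 25).

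The labelled tissue showed its defining smooth muscle genes, with 10 of 10 markers present in every library and 0 of 10 passing in any of the 9 comparisons by edgeR (at most 4 in a comparison at an unadjusted p under 0.05). Their summed CPM ran from 19600 to 40500 in the ascending, 30300 to 34200 in the descending, 15200 to 38400 in the suprarenal and 25500 to 60900 in the infrarenal libraries, the highest being infrarenal replicate 1. Of 5 pericyte markers tested, 4 were positive and 1 negative in the infrarenal region against the rest. PDGFRB (0.69, adjusted p = 0.00111) and KCNJ8 (0.88, adjusted p = 0.0293) passed by edgeR, 2 of 5 beside 2.98% of all genes. RGS5 was at 1719, 3848, 2507 and 3916 CPM in the infrarenal, 825 to 2313 in the ascending, 4152 to 5174 in the descending and 739 to 6407 in the suprarenal libraries. Summed pericyte CPM, most of it from RGS5, ran from 1340 to 2830 in the ascending, 4700 to 5790 in the descending, 1220 to 7140 in the suprarenal and 2740 to 4750 in the infrarenal libraries. HIGD1B was at 0 in 7 libraries. KCNJ8 was at 111 CPM in infrarenal replicate 1 and at 39.2 to 49.5 CPM in the other infrarenal libraries. Without that library the KCNJ8 difference was 0.41 (adjusted p = 0.0892 by edgeR), without the 3 libraries that stood apart 0.37 (adjusted p = 0.0422), and the call was lost in 5 of 24 alternative analyses, among them those without descending replicate 3 or 4 or suprarenal replicate 4. Among mesothelial markers KRT8 fell (-2.67, adjusted p = 0.00253), with summed CPM of at most 212 in any library. KRT8 was at 64.9 to 95.4 CPM in all ascending libraries. MSLN and UPK3B were at 0.494 to 0.787 and 0.185 to 0.439 CPM in ascending replicates 1 to 3, against 40.7 and 28 CPM in replicate 4. The KRT8 fall is therefore not read as a change in mesothelial content. Among cardiac muscle markers MYH6 differed among regions (adjusted p = 0.0417 by edgeR) and was at 0 in 4 libraries. Its highest level, 5.83 CPM, was in ascending replicate 1. That library also had the highest summed cardiac CPM, 217.6, with ascending replicate 4 next at 44.91. Adipocyte sums ran from 176 to 703 CPM in the ascending and from 229 to 4010 CPM in the other libraries, with 0 of 8 markers passing by edgeR in any comparison and at most 6 at an unadjusted p under 0.05. The part of these cell types in the member values was not tested.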

How the data were processed

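The 16 aorta libraries were grouped by the region in their titles. Per the submitters' processing notes, the authors used tools that include fastp, HISAT2 2.0.5 and featureCounts 1.5.0-p3. The deposited values are raw counts, 1 row per GeneID. Which build, annotation and strand setting were used is not given in the sources used here. Reads of overlapping or antisense genes therefore cannot be told apart. The 16 library files held the same values as the series table. Symbols were taken by GeneID from the RefSeq gene table of assembly T2T-MFA8v1.1, for names and neighbours only, and matched 24609 rows (74.9%).

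Genes were kept with filterByExpr (minimum count 10, minimum total 15), which left 15926. Counts were scaled with TMM and fitted with the quasi-likelihood test of edgeR 4.0.16 (R 4.3.3), with 1 mean per region and all 16 libraries, and adjusted by Benjamini-Hochberg over all genes at 0.05. The trend weights the regions equally spaced, and its value is per region. Chain ratios used a prior of 1 count and exact permutation tests. The fit was tested on simulated counts in which genes drawn from all those tested were changed in the infrarenal libraries. Of 67 genes changed 1.5-fold it found 4 against the rest, 0 against ascending and 0 in the trend. Of 65 changed 2-fold it found 29, 21 and 21, and of 66 changed 4-fold 53, 47 and 45. The simulation made 89, 72 and 68 calls, against 474, 556 and 592 in the data. Its genes were drawn from all levels of counts, so these shares need not hold for the members. Its trend figures are for a change in the infrarenal libraries alone, not for a gradient. A member that did not pass is not shown to be equal between regions.

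The 10 members are named throughout, and genes of 3 related lists are named where they pass a test or have one of the 2 smallest p-values for any difference. Members and lists were chosen with earlier results of these data known. Alternatives were 2 other scalings, 2 other filters, DESeq2 1.42.0, limma 3.58.1 voom, a replicate block, only the 8 libraries compared, and each library left out; leaving out 3 libraries together was added after the data were seen.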

Additional observations from a re-analysis of the deposited data

Results flagged for a closer look

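COL4A2 in ascending replicate 4 was at 472.7 CPM, far below the other 3 ascending libraries, which lay between 885.6 and 927.3 CPM. Its gap to the nearest of them was 0.908 of the range of the 4 libraries, above Dixon's 95% critical value for 4 samples. It was 1 of 40 groups screened, the 10 members in 4 regions, and chance flags about 1 in 20 such groups.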

How the results depend on the processing

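Of 4890 alternative values of the 201 results for single genes and ratios, 145 lost their call, 83 gained one and 0 reversed; 50 further member values changed sign while passing in neither analysis. Members passing went from 0 to 1 in infrarenal against the rest with a replicate block (LAMA5, log2 0.50, adjusted p = 0.0462) and with DESeq2, to 2 without the 3 libraries that stood apart (COL4A6 and LAMA5), and from 0 to 1 across single libraries left out. In the trend they went from 1 to 2 with DESeq2 and without the 3 libraries, and from 0 to 1 across single libraries. In infrarenal against ascending they went from 1 to 0 with library totals, without a filter and in the 8 libraries alone, to 2 with DESeq2 and without the 3 libraries, and from 0 to 2 across single libraries. They went from 0 to 1 without the 3 libraries against suprarenal; with DESeq2, in the 8 libraries alone and without the 3 against descending; and with DESeq2 and without the 3 for any difference. Ratios passing went from 1 to 2 without the 3 libraries and from 0 to 2 across single libraries. The cause was not tested.

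Over all genes, infrarenal against the rest called 474 (46% higher; 34.3% with library totals), 852 with DESeq2, 1607 without the 3 libraries and 267 to 568 across single libraries. The trend called 592, against 1025, 1851 and 391 to 953, and infrarenal against ascending 556, against 1004, 2099 and 345 to 1001. Any difference called 322, against 825, 1128 and 213 to 477; infrarenal against descending 263, against 624, 653 and 132 to 326; infrarenal against suprarenal 32, against 167, 241 and 3 to 52; suprarenal against ascending 41, against 184, 113 and 19 to 66; descending against ascending 18, against 177, 141 and 7 to 34. Other counts beyond 1.5 times were 52, 51, 15 and 0 in infrarenal against suprarenal with library totals, without a filter, with voom and in the 8 libraries alone; in those 8 alone also 291 in infrarenal against ascending, 22 in suprarenal against ascending and 30 in descending against ascending, the last 9 with voom. Suprarenal against descending called 0 in every analysis (264 at an unadjusted p under 0.05 by edgeR). The replicate block raised any difference to 532, infrarenal against descending to 432, infrarenal against ascending to 843, infrarenal against suprarenal to 84, suprarenal against ascending to 76 and descending against ascending to 62. The numbers were not treated as pairs, because the labels tie them to no animal. Of 24 same-number pairs of libraries, 20 had correlated deviations above 0.1, the lowest being -0.125. The median correlation was 0.34 for same-number and -0.0955 for different-number pairs, and 15 of 16 libraries were closest to their own number. This is a hint from the data that libraries of a number may be related. The main tests take the 16 libraries as independent and leave any such relation out. Every member had at least 827 counts in each library, and the number of libraries, 4 a region, limits the precision.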
